A study of Mus musculus with 6 samples.

Results

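The 10 genes described here mark the pericentral zone of the liver lobule or belong to the Wnt/beta-catenin signal that maintains it, and were measured in wild-type and SIRT7-deficient mouse liver. They were chosen by name and are Glul, Oat, Slc1a2, Rhbg, Cyp2e1, Cyp1a2, Axin2, Lgr5, Tbx3 and Ctnnb1. All 10 were on the array, on 15 of 22626 probe sets, as 10 of 12393 genes with a probe set of 1 gene symbol, and 9 of them passed the filter on dim genes (a mean log2 value of at least 4) that left 8343 genes for testing. Lgr5 did not pass it. For each gene the brightest probe set, by its mean over all arrays, was used, and its other probe sets are given beside it.

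The groups were 3 livers labelled wild-type at the Sirt7 allele and 3 labelled knock-out, each on its own Affymetrix array. The sample titles name no difference in treatment. No label gives the strain, age or sex, or says how the allele was made or whether its loss was limited to a cell type. Whether each sample was a separate animal is not stated either, so p-values reflect only sample-to-sample spread, part of which may be technical. The comparison asks whether the loss of SIRT7, a nuclear NAD-dependent deacylase, is accompanied by a change in these genes.

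Blood crosses the liver lobule from the portal tracts to a central vein, and hepatocytes along that path divide the work between them. Wnt ligands and R-spondins from endothelial cells of the central vein stabilise beta-catenin in the nearest hepatocytes, where it acts with TCF/LEF factors on genes of glutamine synthesis and drug metabolism. The periportal hepatocytes at the other end carry out urea synthesis and gluconeogenesis. Whole-liver RNA averages over the lobule, so a wider or narrower pericentral zone and more or less RNA per cell cannot be told apart.

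RefSeq promoter windows of assembly GRCm38.p6, 250 bases before to 50 after a gene's start, were found for 7 of the 10 genes (Glul, Oat, Slc1a2, Cyp2e1, Cyp1a2, Axin2 and Ctnnb1). The letters CTTTGA, the core recognised by the TCF/LEF partners of beta-catenin, or their reverse complement TCAAAG, occurred in 1 window each of 3 of them. The 7 genes had 8 windows. Over all genes the letters occurred in 16.0% of the 32851 windows. Sequence outside the windows was not searched, so a gene without a match may have one elsewhere. The letters were looked for because TCF/LEF factors, with which beta-catenin acts on genes, recognise them. The stretches around the 4 matches are shown with the match in capitals, 5′ to 3′ on the gene's strand. They are Slc1a2 at chr2:102706215-102706254 (plus strand, first), Slc1a2 at chr2:102706344-102706383 (plus strand, second), Cyp2e1 at chr7:140763667-140763706 (plus strand) and Cyp1a2 at chr9:57683876-57683905 (minus strand). A match describes letters only and is not evidence of binding.
Slc1a2 first: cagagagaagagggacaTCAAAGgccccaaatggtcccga
Slc1a2 second: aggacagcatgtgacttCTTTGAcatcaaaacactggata
Cyp2e1: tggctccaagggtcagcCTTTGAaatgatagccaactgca
Cyp1a2: tattcttTCAAAGacatataccttggcccc

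The deposited values are log2 expression values, on which 1 unit is a doubling, and limma called a gene at a Benjamini-Hochberg adjusted p under 0.05. Sirt7 checked the labels: its value was 9.74 ± 0.15 (SD, n = 3) in the wild-type group against 2.78 ± 0.37 (SD, n = 3) in the knockout group. The hepatocyte markers lay between 11.50 and 13.97 in every liver, Alb among them, and 11 of 14 pancreatic, muscle, mesothelial and kidney markers were under the filter. Correlations across the tested genes, which are not independent replicates, were 0.962 to 0.984 between arrays of a group and 0.949 to 0.979 between groups. Wild-type replicate 3 stood apart from its group, correlating at 0.968 and 0.971 with the other wild-type arrays and at 0.972, 0.977 and 0.979 with the knockout arrays, so results that rest on it are given with and without it. Knockout replicate 3 correlated at 0.962 and 0.976 with its own group and at 0.969, 0.976 and 0.979 with the wild-type arrays, and results that turn without it are likewise given. Knockout replicate 1 correlated at 0.978 and 0.962 with its own group and at 0.951, 0.949 and 0.972 with the wild-type arrays. It was the lowest liver in 2423 of the 8343 tested genes, more than any other liver.

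None of the 9 tested members was called (0), where limma called 2 of 8343 genes (0.0240%), and 0 had an unadjusted p under 0.05, against 6.46% of all tested genes. In 0 of the 9 did the groups fail to overlap, against 9.74% of all tested genes. The largest differences were those of Axin2 (-0.34) and Tbx3 (-0.31), and the median over the members was -0.067, with 7 lower and 2 higher, beside a median of -0.032 and 54.6% lower over all genes. The split was 6 lower and 3 higher after quantile normalization, and 5 and 4 with the mean of each gene's probe sets. Without wild-type replicate 3 the split was 4 lower and 5 higher and the median 0.047.

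**Figure D1:**
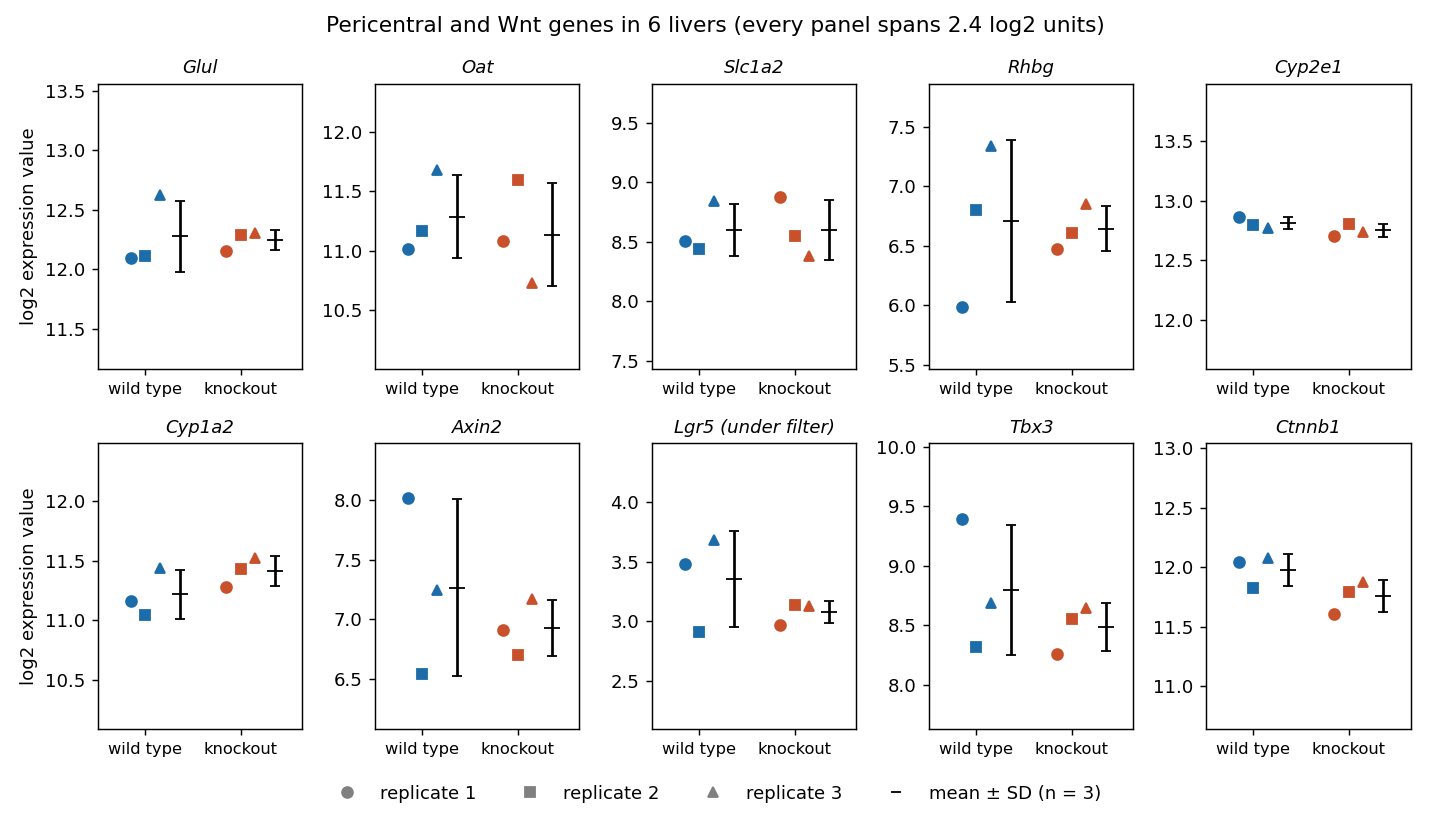
Log2 expression value (vertical axis) of each member in the 3 wild-type livers (blue) and the 3 knockout livers (orange), with marker shapes for the replicate number and black bars for the mean ± SD of 3 livers. The groups overlap in all 10 genes, and the wild-type livers lie farther apart than the knockout livers in Glul, Rhbg, Axin2, Lgr5 and Tbx3.

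Glul, Oat, Slc1a2 and Rhbg handle glutamate and ammonia. Glul, the glutamine synthetase gene whose expression is confined in healthy liver to hepatocytes around the central vein, was at 12.09, 12.11 and 12.62 in wild-type replicates 1 to 3 and at 12.15, 12.29 and 12.30 in knockout replicates 1 to 3. All 3 knockout livers fell inside the wild-type range, which wild-type replicate 3 widened upward. The difference of -0.030 (SE 0.21) had a 95% interval of -0.50 to 0.44, or from a 1.42-fold fall to a 1.36-fold rise (limma adjusted p = 0.981). Its second probe set, at 10.21, 10.43 and 10.76 against 10.34, 10.62 and 10.87, differed by 0.14 (SE 0.21). The sign of the Glul difference thus changed with the probe set, and it also turned after quantile normalization (0.035), when wild-type replicate 3 was left out (0.14) and when knockout replicate 1 was left out (0.019).

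Oat encodes ornithine aminotransferase, which turns ornithine toward glutamate in the same pericentral cells. It was at 11.01, 11.16 and 11.68 in wild-type livers and at 11.08, 11.59 and 10.73 in knockout livers. The knockout livers alone spanned nearly the whole range of the gene, with knockout replicate 3 the lowest of all and knockout replicate 2 close to the highest wild-type liver. The difference was -0.15 (SE 0.28, 95% interval -0.78 to 0.48, limma adjusted p = 0.918), and it turned positive when replicate 3 of either group was left out (0.047 for wild type, 0.054 for knockout).

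Slc1a2 encodes the glutamate transporter GLT-1, which brings glutamate to glutamine synthetase. Its values were 8.50, 8.44 and 8.85 in wild-type livers and 8.88, 8.55 and 8.38 in knockout livers. Both the highest and the lowest liver were knockouts, and the group means of 8.60 ± 0.22 and 8.60 ± 0.25 (SD, n = 3 each) were separated by 0.005 (SE 0.21, 95% interval -0.48 to 0.49, limma adjusted p = 0.996). The difference changed sign after quantile normalization (-0.018) and on leaving out wild-type replicate 1 (-0.041), wild-type replicate 2 (-0.072) or knockout replicate 1 (-0.13).

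Rhbg encodes an ammonia transporter of the Rhesus glycoprotein family. It was at 5.99, 6.80 and 7.34 in wild-type livers and at 6.47, 6.61 and 6.85 in knockout livers. The knockout livers lay between the wild-type extremes, and the wild-type SD of 0.68 was 3.56 times that of the knockout livers (0.19). The difference was -0.067 (SE 0.33), within a 95% interval from -0.81 to 0.67 (limma adjusted p = 0.975). It was 0.25 without wild-type replicate 3 and -0.43 without wild-type replicate 1, and 0.018 without knockout replicate 1, so its direction depended on single livers.

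Of the cytochromes, Cyp2e1 had the narrowest interval of the tested members, while that of Cyp1a2 was wider than that of Ctnnb1. Cyp2e1, the ethanol- and acetaminophen-oxidising cytochrome of pericentral hepatocytes, was at 12.87, 12.80 and 12.77 in wild-type livers and at 12.70, 12.81 and 12.74 in knockout livers. The 6 livers spanned 0.16 log2 units, the smallest range of the members. The difference of -0.060 (SE 0.17) had a 95% interval of -0.45 to 0.33, or from a 1.36-fold fall to a 1.25-fold rise (limma adjusted p = 0.96). After quantile normalization it was 0.035. The values lie near the top of the array's scale, where the highest value is 13.97, and how far the probes still respond there was not tested.

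Cyp1a2, the caffeine-metabolising cytochrome that answers to the aryl hydrocarbon receptor as well as to beta-catenin, was at 11.16, 11.05 and 11.44 in wild-type livers and at 11.27, 11.43 and 11.52 in knockout livers. Only wild-type replicate 3 reached into the knockout range. The difference was 0.195 (SE 0.19, 95% interval -0.24 to 0.63, limma adjusted p = 0.852) and stayed positive in each alternative run, between 0.11 and 0.31. The upper bound corresponds to a 1.55-fold rise.

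**Figure D2:**
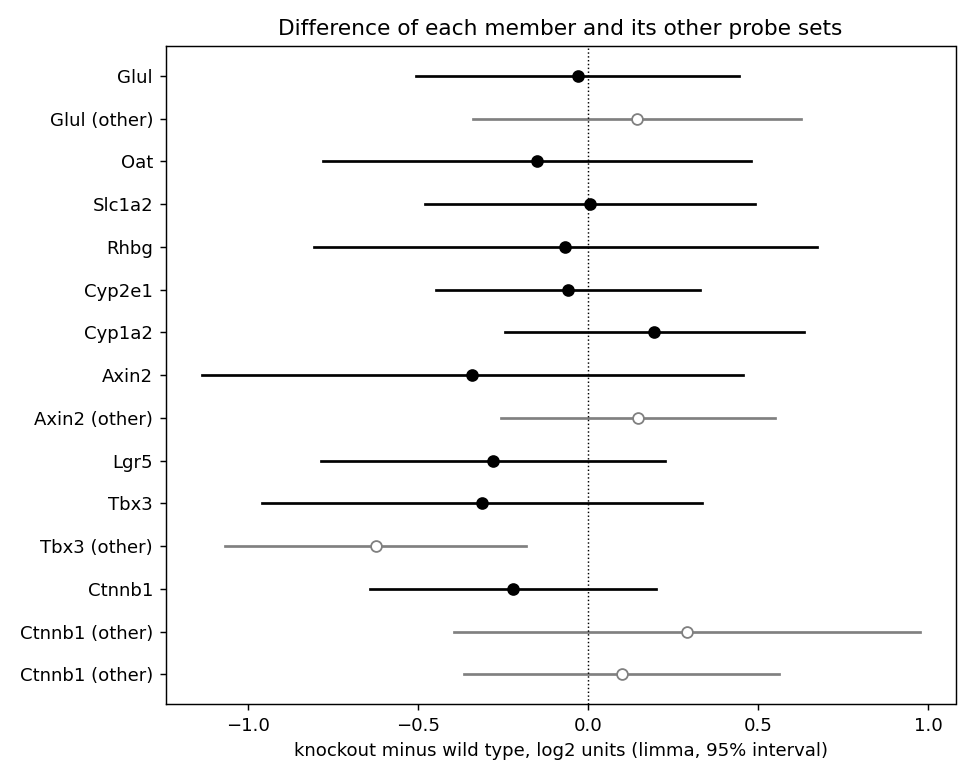
Knockout minus wild type in log2 units (horizontal axis) for each member, as limma's estimate with its 95% interval. Black points are the probe sets used, open grey points the other probe sets of the same gene. The intervals of all 10 probe sets used include 0, and the second Tbx3 probe set (-0.62) is the one whose interval does not.

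The remaining targets report Wnt signalling itself. Axin2, a scaffold of the beta-catenin destruction complex that is induced by the signal it restrains, was at 8.02, 6.54 and 7.24 in wild-type livers and at 6.91, 6.70 and 7.17 in knockout livers. Its highest and lowest values were both in wild-type livers, 1.48 log2 units apart, the widest range among the members. The difference was -0.34 (SE 0.35, 95% interval -1.14 to 0.46, limma adjusted p = 0.855), so a fall to 0.455 of the wild-type level lies at its edge. It was 0.036 without wild-type replicate 1 and -0.70 without wild-type replicate 2 (unadjusted p = 0.0474, limma adjusted p = 1), and this was the only unadjusted p under 0.05 of a tested member among the 6 fits without 1 liver. A second Axin2 probe set stayed between 2.43 and 2.94, under the filter, and differed by 0.15. Axin2 lies on chromosome 11, as Sirt7 does, 96 tested genes away in the gene order.

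Lgr5, the R-spondin receptor that amplifies Wnt signals in cells next to the central vein, was under the filter, at 3.48, 2.91 and 3.68 in wild-type livers and at 2.97, 3.14 and 3.13 in knockout livers. At such values expression cannot be told from background, and a log2 difference there does not translate into an RNA fold. In the fit without a filter it differed by -0.28 (SE 0.22, limma adjusted p = 0.829), with the highest and the lowest value in wild-type livers.

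Tbx3, a T-box transcription factor gene activated by beta-catenin in liver, was at 9.39, 8.32 and 8.68 in wild-type livers and at 8.26, 8.55 and 8.65 in knockout livers. Wild-type replicate 1 stood above the other 5 livers, which lay between 8.26 and 8.68. The difference of -0.31 (SE 0.28, 95% interval -0.96 to 0.34, limma adjusted p = 0.842) was -0.015 without that liver. The second Tbx3 probe set, under the filter at a mean of 3.74, was at 4.29, 4.18 and 3.69 in the wild-type group and 3.34, 3.45 and 3.51 in the knockout group. There every knockout value was below every wild-type value, with a difference of -0.62 (SE 0.19, unadjusted p = 0.0119, limma adjusted p = 0.806). It was the only probe set of the 15 with no overlap, and 10.3% of all probe sets with 1 symbol had none.

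Ctnnb1 encodes beta-catenin, whose activity is set mainly by protein stability and not by its mRNA. The probe set used was at 12.04, 11.82 and 12.08 in wild-type livers and at 11.61, 11.80 and 11.87 in knockout livers. Knockout replicates 1 and 2 were below all wild-type livers, and the difference was -0.22 (SE 0.18, 95% interval -0.64 to 0.20, limma adjusted p = 0.832). The other 2 probe sets pointed the other way. The next brightest, at 9.09, 9.02 and 9.67 against 9.38, 9.34 and 9.36, differed by 0.099 (SE 0.20), and the dimmest, at 5.13, 5.13 and 6.07 against 6.09, 5.66 and 5.46, by 0.29 (SE 0.29). The direction for Ctnnb1 therefore depends on the probe set, and their mean differed by 0.056.

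The members did not vary in the same livers. Axin2 and Tbx3 were highest in wild-type replicate 1, by 0.92 and 0.75 above their means over 6 livers, whereas Rhbg was lowest there (-0.69) and Glul (-0.17) and Oat (-0.20) were also below their means. Glul, Oat, Rhbg and Ctnnb1 were highest in wild-type replicate 3, which held the top value in 4 of 9 tested members against 15.4% of all tested genes. The SD was larger in wild-type than in knockout livers in 6 of 9 tested members, against 40.4% of all tested genes, with Ctnnb1 at equal SDs to the precision printed (0.14 each) and Oat, Slc1a2 and Cyp2e1 at smaller wild-type SDs. It was over 2 times as large in 4 of them (Glul, Axin2, Tbx3 and Rhbg), against 15.3% of all tested genes, though for Glul the wild-type spread came from replicate 3 alone. Lgr5, under the filter, had a ratio of 4.31. These shares describe the 6 livers and were not tested, and what sets the wild-type livers apart from each other is not given in the labels.

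**Figure D3:**
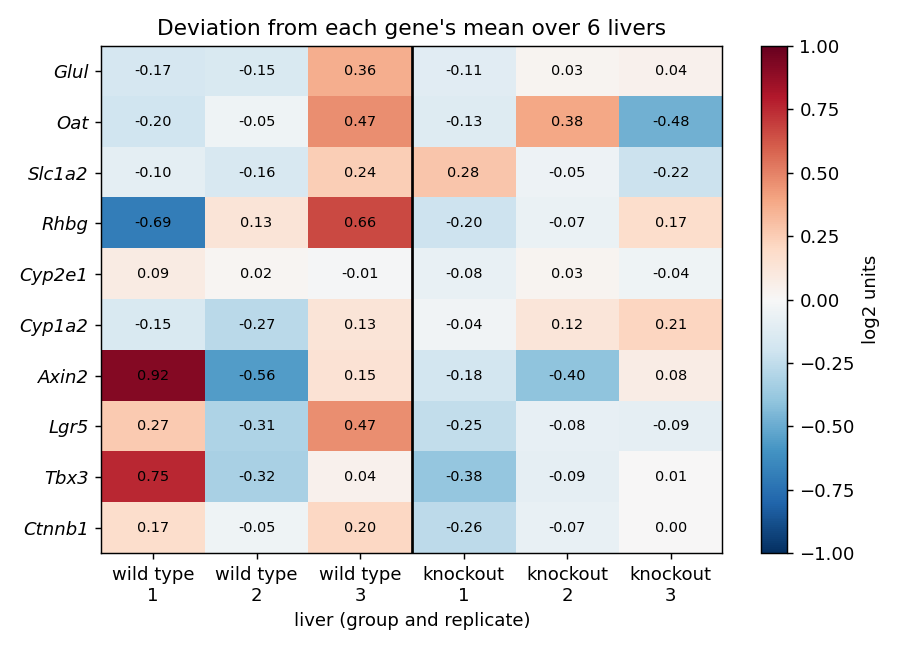
Deviation of each member (rows) from its own mean over 6 livers, in log2 units, by liver (columns, wild type left of the line). Axin2 and Tbx3 are high in wild-type replicate 1, where Rhbg is low, and Glul, Oat and Rhbg are high in wild-type replicate 3.

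Likeness of pattern was measured as the root mean square difference between 2 genes' log2 values over the 6 livers, each centred on its mean. Closest to Glul were Eif2b5 (0.041), a translation initiation factor subunit gene, Hbp1 (0.056), which encodes an HMG-box repressor, and Ext2 (0.058), a heparan sulphate synthesis gene, where the median distance of all tested genes was 0.32. Closest to Axin2, the member with the largest range, were Tspyl4 (0.14), Rab27b (0.20) and its fellow member Tbx3 (0.20), against a median of 0.55. Of all other tested genes Tbx3 was thus the third nearest to Axin2 in these livers. None of these 6 genes was called (0), with limma adjusted p-values of 0.796 to 0.992.

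The rest of the Wnt pathway was described through lists of ligands and receptors, cytoplasmic and nuclear components, and inhibitors and feedback targets. Of 21 ligand and receptor genes on the array 11 were tested, 2 higher and 9 lower, with 0 called, where 54.6% of all tested genes were lower. Their median was -0.146, and it ranged from -0.453 (without knockout replicate 3) to -0.091 (without wild-type replicate 3) when 1 liver was left out. The endothelial ligands Wnt2 and Wnt9b were under the filter, at means of 3.76 and 2.98. Of the 11 tested, 2 had an unadjusted p under 0.05 (Fzd8 and Wnt5a), against 6.46% of all tested genes. The same 2 had groups without overlap, against 9.74% of all tested genes. Fzd8, a Wnt receptor gene, was at 7.98, 7.40 and 6.77 in wild-type livers and 5.78, 6.64 and 6.21 in knockout livers, without overlap (-1.17, SE 0.34, limma adjusted p = 0.725). Wnt5a, whose product mostly signals without beta-catenin, was at 5.12, 5.14 and 4.50 against 3.79, 4.05 and 4.19, also without overlap (-0.92, SE 0.24, limma adjusted p = 0.655), and differed by -0.82 on its other probe set. Fzd6, another receptor gene, was at 7.04 in wild-type replicate 1 and between 4.78 and 5.91 in the other livers (-0.77, SE 0.49). Its other probe set, under the filter at a mean of 3.16, differed by -0.250.

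In the cytoplasm and nucleus 24 genes were tested, 7 higher and 17 lower, where 54.6% of all tested genes were lower. Their median was -0.149, which turned to 0.030 with the mean of each gene's probe sets and was -0.226 without knockout replicate 1. Limma called 0 of them and 1 had an unadjusted p under 0.05, against 6.46% of all tested genes. The groups did not overlap in 3 of the 24 (Btrc and Apc lower, Ldb1 higher), against 9.74% of all tested genes. Btrc, the F-box protein gene that marks phosphorylated beta-catenin for destruction, was at 7.70, 7.40 and 7.11 in wild-type livers and 6.40, 6.61 and 6.36 in knockout livers, with every knockout liver lower (-0.95, SE 0.21, limma adjusted p = 0.544). Its other probe set, under the filter at a mean of 2.93, differed by -0.221. Csnk1d, a casein kinase gene, differed by -0.60 (SE 0.26), but by 0.22, 0.12, 0.51 and 0.048 on its other 4 probe sets. Ctnna1, which encodes the alpha-catenin of adherens junctions, differed by -0.53 (SE 0.25), by -0.62 on its other bright probe set and by 0.010 on a dim one. Tcf7l2, the main TCF gene of hepatocytes, differed by -0.13.

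Of 19 inhibitors and feedback targets on the array only 5 passed the filter, 3 higher and 2 lower, with 0 called and a median of 0.11 that turned to -0.050 without the filter and ranged from 0.005 (without wild-type replicate 2) to 0.26 (without wild-type replicate 3) when 1 liver was left out. Sp5, a transcription factor gene that is a direct Wnt target, was at 5.61, 4.71 and 4.21 in wild-type livers and 3.69, 3.94 and 4.32 in knockout livers (-0.86, SE 0.35). Rnf43, a ubiquitin ligase gene that removes Wnt receptors in negative feedback, was at 8.35, 7.24 and 7.62 against 6.36, 6.98 and 7.35 (-0.84, SE 0.34). Their unadjusted p-values were 0.0373 and 0.0377 (limma adjusted p = 0.769 for each), where 6.46% of all tested genes had one under 0.05. The groups overlapped in both, and both were highest in wild-type replicate 1, as Axin2 and Tbx3 were. Without that liver 0 genes of the list had an unadjusted p under 0.05, nor did any (0) without knockout replicate 2. Sp5 and Rnf43 were also both lowest in knockout replicate 1, as were 2423 of the 8343 tested genes. Without knockout replicate 1, 0 genes of the list were lower and 1 was higher at an unadjusted p under 0.05. Notum, which encodes a secreted Wnt deacylase, leaned the other way, between 5.25 and 6.20 in wild-type livers and between 5.85 and 6.85 in knockout livers (0.66, SE 0.34), and Lect2, a pericentral hepatokine gene, differed by 0.11.

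Zonation beyond the members was described in the same way. Of 28 other pericentral genes tested, 12 were higher and 16 lower, with a median of -0.058 that turned to 0.023 with the mean of each gene's probe sets. Of 29 periportal genes, 11 were higher and 18 lower, with a median of -0.069. Limma called 0 in both lists, and 3 pericentral and 2 periportal genes had an unadjusted p under 0.05, where 6.46% of all tested genes did. Without 1 liver the pericentral median ranged from -0.086 to 0.032 (0.032 without knockout replicate 1) and the periportal one from -0.144 (without wild-type replicate 1) to -0.028 (without wild-type replicate 2).

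Of the pericentral genes with the smallest p, Car2, a carbonic anhydrase gene, was at 8.07, 7.77 and 8.74 in wild-type livers against 8.93, 9.39 and 8.95 in knockout livers (0.90, SE 0.28, limma adjusted p = 0.746). Blvrb, a biliverdin reductase gene, differed by 0.87 (SE 0.35) and Rhbdd1, a rhomboid protease gene, by -0.57 (SE 0.18). The groups did not overlap in these 3 genes of the 28, where 9.74% of all tested genes had no overlap. Rgn, Aldh1a1 and Slco1b2, pericentral genes of vitamin, retinoid and organic anion handling, differed by -0.27, -0.30 and 0.030, and Cyp7a1, the first enzyme of bile acid synthesis, by -0.82 (SE 0.55).

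Among periportal genes the urea cycle enzymes Arg1, Cps1 and Otc differed by -0.069, 0.10 and -0.057, the gluconeogenic Pck1 by 0.010 and Cyp2f2 by -0.071. Sox9, a factor of bile duct cells and of the hepatocytes beside them, was at 6.27, 5.06 and 5.75 against 4.85, 4.49 and 5.00 (-0.91, SE 0.31, limma adjusted p = 0.746), without overlap, and was highest in wild-type replicate 1. Its other probe set, under the filter at a mean of 2.79, differed by -0.246. Hsd17b6 differed by 0.58 (SE 0.24) and Igfals by -0.82 (SE 0.37), both with overlapping groups. The other Hsd17b6 probe set, under the filter at a mean of 3.55, differed by 1.137. Of 6 midzonal genes 4 were higher, with 0 called and a median of 0.36 that fell to 0.14 without wild-type replicate 2 and to 0.185 with the mean of each gene's probe sets. An unadjusted p under 0.05 was found in 2 (Igfbp2 and Hamp2), against 6.46% of all tested genes. That count was 0 without wild-type replicate 1, wild-type replicate 2 or knockout replicate 1. The groups did not overlap in 3 (Igfbp2 and Mup3 higher, Hamp lower), against 9.74% of all tested genes. Igfbp2 differed by 0.55 (SE 0.21) and Hamp2 by 0.65 (SE 0.27), while Hamp, the hepcidin gene and near-identical to Hamp2 so that their probe sets may share signal, differed by -0.35 (SE 0.18). On their other probe sets Hamp differed by -0.463 and Hamp2, under the filter at a mean of 2.42, by 0.028.

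**Figure D4:**
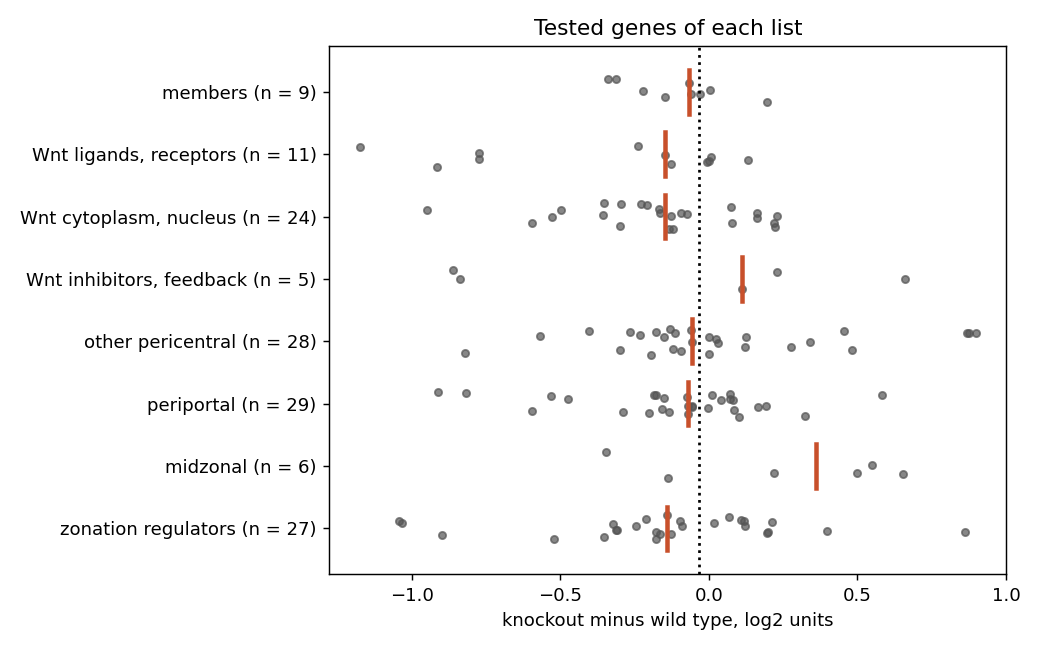
Knockout minus wild type in log2 units (horizontal axis) for every tested gene of 8 lists (points, spread vertically for sight only), with the list's median (orange bar) and the median of all tested genes (dotted line, -0.032). The members' points lie between -0.34 and 0.195, and those of the Wnt ligands and receptors between -1.17 and 0.13.

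Markers of other cells were read beside the members, since Wnt ligands come from endothelium and a change in cell makeup would shift whole-liver values. The mean log2 level of 19 endothelial markers ranged from 7.23 to 7.46 in wild-type livers and from 7.17 to 7.70 in knockout livers. Knockout replicate 1 was the highest liver in 20.6% of all tested genes and in 12 of these 19 markers. Their median difference of 0.115 turned to -0.12 without that liver and was 0.003 without wild-type replicate 2. Oit3 differed by 0.33 (SE 0.21), Eng by -0.32 (SE 0.21), with 0.56 on its other probe set, and Tek by -0.27 (SE 0.17). For 15 Kupffer cell and leukocyte markers the groups did not meet, at 7.97 to 7.99 and 8.15 to 8.32. Nor did they for the 27 cytoplasmic and nuclear Wnt genes on the array, at 7.61 to 7.76 and 7.53 to 7.60. Of single tested genes 9.74% had no overlap, which is not a like measure for the mean of a list. For the other lists, the members among them, the ranges of this mean overlapped. In the Kupffer cell and leukocyte list 13 of 15 were higher, against 45.4% of all tested genes. Its median was 0.21, and 0.077 without knockout replicate 2. C1qa (1.05, SE 0.35) and Cd68 (0.50, SE 0.20) had the smallest p (limma adjusted p = 0.746 and 0.769). Csf1r, the macrophage growth factor receptor gene, went the other way (-0.63, SE 0.32, with -0.39 and 0.057 on its other probe sets), as did the Kupffer cell lectin gene Clec4f (-0.15, SE 0.31). For 11 hepatocyte markers the ranges were 12.72 to 12.93 and 12.53 to 13.00, with 8 of 11 lower and a median of -0.225. Without knockout replicate 3 that median was -0.381 and 5 of them had an unadjusted p under 0.05, against 0 with all livers. Such counts rose in some other lists too in that fit, to 5 lower cytoplasmic and nuclear Wnt genes and 4 lower periportal genes. The share of all tested genes in that fit was not counted, so these counts cannot be read as a result about the lists. With all livers the 3 smallest p of the hepatocyte markers belonged to Tdo2 (-0.44, SE 0.21, with -0.21 on its other probe set), Apoh (-0.38, SE 0.29) and Fgb (-0.225, SE 0.22).

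For 13 stellate cell markers the ranges were 7.41 to 7.67 and 7.33 to 7.56, with 7 of 12 tested lower and a median of -0.073 that was 0.005 without wild-type replicate 1. Col1a2, a collagen gene, differed by -0.60 (SE 0.21), with -0.041 on its other probe set, Angptl6 by -0.45 (SE 0.18) and Des by -0.24 (SE 0.18). The other Des probe set, under the filter at a mean of 1.77, differed by 0.191. For 10 cholangiocyte markers the ranges were 4.17 to 4.47 and 4.30 to 4.46, with 3 of 5 tested higher and a median of 0.13 that ranged from 0.003 (without wild-type replicate 1) to 0.53 (without wild-type replicate 3). Tspan8 differed by 0.56 (SE 0.25), with 0.765, 0.965 and 0.610 on its other probe sets, Krt19 by 0.58 (SE 0.28) and Pkhd1 by -0.32 (SE 0.22). Of the 3 tested pancreatic, muscle, mesothelial and kidney markers, Cela1 differed by -0.47 (SE 0.31), Cela2a by 0.048 and Upk3b by -0.024, with 0.304 on the other Upk3b probe set. Limma called 0 genes of these 6 marker lists. The part of these cells in the members' values was not tested.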

How the data were processed

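Liver RNA of 3 wild-type and 3 SIRT7 knockout samples was measured on 1-colour Affymetrix arrays. The authors deposited 1 log2 expression value per probe set and array, for which the submitters' processing notes name GCRMA 2.20.0 and R 2.11.1. The GCRMA settings were not given in the sources used here. That the scale is log2 was read from the range of 0.841 to 13.969. The values carry no detection call, array medians were 5.69 to 5.77, and the number of arrays limits the precision.

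The platform annotation gave the names: of 22626 probe sets 20380 had 1 symbol, 691 several and 1555 none. All 8343 genes with a mean of at least 4 were fitted with limma 3.58.1 in R 4.3.3 (lmFit, eBayes, 2-sided, no block), with 4 residual and 4.60 prior degrees of freedom. The fit was tested on simulated data. Lgr5 comes from the fit without a filter, and other probe sets from a fit of all 20380.

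The members and lists (284 entries in 14 lists, 254 on the array) were chosen with earlier results of these data known, so lists are described by counts and medians and not tested. Named were all members, Sirt7, the 3 genes of smallest p per list and the 3 nearest in pattern to Glul and to the widest-ranging member. Other genes in the text were chosen after their values were seen. Alternatives changed the filter, normalization, probe set rule, array weights, variance trend, block and test, or left out 1 liver.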

Additional observations from a re-analysis of the deposited data

How the results depend on the processing

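With 0 members called, no alternative called a member (0 in all 16), and the lowest adjusted p of a single member among them was 0.104. Of 152 recomputed member differences 132 kept their sign. Those that turned were Glul after quantile normalization (0.035), with the mean of probe sets (0.057), on its second probe set (0.144) and with array weights (0.11), Cyp2e1 (0.035) and Slc1a2 (-0.018) after quantile normalization, Ctnnb1 with the mean of probe sets (0.056) and on its other probe sets (0.29 and 0.099), and Oat with array weights (0.328). Without 1 liver, Glul ranged from -0.121 to 0.143, Oat from -0.378 to 0.054, Axin2 from -0.704 to 0.036, Slc1a2 from -0.132 to 0.129 and Rhbg from -0.428 to 0.247. The median over members ranged from -0.122 to 0.047 without 1 liver. The number of all genes called was 2, and 1 with the mean of probe sets, 4 with the variance trend, 0 with an ordinary test and 1748 with array weights, which ranged from 0.310 (knockout replicate 3) to 6.12 (knockout replicate 2). The cause of these counts was not tested. Without 1 liver it ranged from 1 to 38, at 38 when wild-type replicate 3 was left out, 7 for wild-type replicate 2, 5 for knockout replicate 1 and 1 for knockout replicate 2 or 3. Medians of the other lists stayed within 1 SD between livers in 186 of 208 recomputations. The replicate block left 2 genes and 0 members called. Same-numbered samples did not deviate together (correlations -0.089, -0.091 and -0.194), so the numbers were not taken to pair the livers. Low signal limits Lgr5, Wnt2, Wnt9b and the second probe sets of Axin2 and Tbx3.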

Other observations

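Transcription factors and signals that act on zonation were tested in 27 genes, 10 higher and 17 lower, with 0 called by limma. An unadjusted p under 0.05 was found in 3, all lower, where 6.46% of all tested genes had one. All 3 were lowest in knockout replicate 1, as were 2423 of the 8343 tested genes, the most of any liver. The count of lower genes with an unadjusted p under 0.05 was 1 without wild-type replicate 1, wild-type replicate 2 or knockout replicate 1, and 4 without knockout replicate 3. The share of all tested genes in these fits was not counted, so the counts cannot be read as a result about this list. The median of the 27 genes was -0.142, from -0.210 (without knockout replicate 3) to -0.073 (without wild-type replicate 3) when 1 liver was left out. Gata4, a hepatocyte and endothelial factor gene, was at 7.82, 7.63 and 6.79 in wild-type livers and 6.21, 6.55 and 6.78 in knockout livers (-0.90, SE 0.30, limma adjusted p = 0.746). Its other probe set, under the filter at a mean of 2.78, differed by -0.032. Smo, the Hedgehog signal transducer gene, differed by -1.04 (SE 0.36, limma adjusted p = 0.746) and by -0.79 on its other probe set. Foxa2, a hepatocyte factor gene, differed by -1.03 (SE 0.42, limma adjusted p = 0.769), at 5.53 in knockout replicate 1 and between 6.72 and 7.92 in the other livers.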
